A study of Mus musculus with 9 samples.

Results

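The double mutant for β-catenin and Hoxa9 (dKO) was profiled by ATAC-seq in a single library of mouse LSK cells, and 10307 of the 10639 peaks in its list lay on the 19 autosomes. All 10307 are described here, out of 320921 autosomal peaks in the 9 lists of the study. Each dKO peak was placed in 1 of 3 classes by whether it shared at least 1 bp with a peak called in the other 8 libraries, whose lists were used whole. 7947 dKO peaks had a peak in all 8 other lists (77.1%, 95% Wilson interval 76.3 to 77.9), 1417 in 1 to 7 of them (13.7%, 13.1 to 14.4) and 943 in none (9.15%, 8.61 to 9.72). The Wilson intervals here and below cover counting error only, and the 1 dKO library gives no measure of spread between replicates.

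The other libraries were WT (n = 2), the β-catenin mutant Bcat_KO (n = 2), the Hoxa9 mutant HOXA9_KO (n = 2) and the Prmt1 mutant PRMT1_KO (n = 2). The titles call every mutant a KO and the genotype tags call it a knockdown. No promoter, Cre driver, strain or age is given in the labels, and the series design names only transplanted Prmt1 mutant mice as a source of cells. Whether the dKO, WT and single mutant cells came from transplants, or the libraries of a group from separate mice, is not stated. Per the labels, 50000 cells were used per library.

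LSK cells are the lineage-negative, Sca-1-positive, Kit-positive fraction of the bone marrow, which holds the blood stem cells and early progenitors. β-catenin carries canonical Wnt signals into the nucleus, where it acts through TCF/LEF factors, Hoxa9 is a homeobox factor of blood stem and progenitor cells that binds DNA with Pbx and Meis partners, and Prmt1 is the main enzyme for asymmetric dimethylation of arginine. In ATAC-seq the Tn5 transposase cuts accessible DNA, so that reads pile up at active promoters, enhancers and insulator sites.

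The promoters that follow show the sequence at single dKO peaks of different classes, taken for the strength of the peak or for the gene and not as typical of a class. Each is the RefSeq window (GRCm38.p6) from 250 bases before to 50 after an annotated start, on the strand of the gene, with the dKO summit inside it. Capitals mark matches, on either strand, to the letters CCGGAA of the ETS factors, TGTGGTT of RUNX, AGATAA known from erythroid GATA factors, GCGCANGCG of NRF1, CCAAT of NFY, GGGCGG of the SP factors and AAGATGGCG of YY1, and neighbouring or overlapping matches run together. The first 3 belong to peaks found in all 8 other lists: Cbfb (chr8:105170424-105170723, plus strand), the shared partner subunit of the RUNX factors, Gm5165 (chr17:17234653-17234952, plus strand), a predicted gene, and Hjurp (chr1:88277530-88277829, minus strand), the chaperone of the centromeric histone.
Cbfb: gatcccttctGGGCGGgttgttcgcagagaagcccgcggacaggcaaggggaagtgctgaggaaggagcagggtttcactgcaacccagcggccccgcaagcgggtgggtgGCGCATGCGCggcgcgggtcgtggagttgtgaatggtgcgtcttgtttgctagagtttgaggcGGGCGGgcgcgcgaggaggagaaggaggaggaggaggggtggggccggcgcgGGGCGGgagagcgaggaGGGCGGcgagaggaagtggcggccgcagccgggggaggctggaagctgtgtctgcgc
Gm5165: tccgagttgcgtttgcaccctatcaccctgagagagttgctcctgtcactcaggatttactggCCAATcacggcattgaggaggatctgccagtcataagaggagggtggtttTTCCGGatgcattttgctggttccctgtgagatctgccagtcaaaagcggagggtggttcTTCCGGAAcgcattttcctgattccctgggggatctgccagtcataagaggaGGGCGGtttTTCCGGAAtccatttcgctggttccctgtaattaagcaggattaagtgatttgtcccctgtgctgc
Hjurp: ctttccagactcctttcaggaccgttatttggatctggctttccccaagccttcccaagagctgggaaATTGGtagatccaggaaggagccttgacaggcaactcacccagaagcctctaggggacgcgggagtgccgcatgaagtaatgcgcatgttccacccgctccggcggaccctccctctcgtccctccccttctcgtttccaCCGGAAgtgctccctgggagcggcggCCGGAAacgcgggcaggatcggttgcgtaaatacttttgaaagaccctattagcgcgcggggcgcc
Aass (chr6:23132937-23133236, minus strand), which encodes an enzyme of lysine breakdown, had a peak in the dKO and in all 6 single mutant libraries and in neither WT library.
Aass: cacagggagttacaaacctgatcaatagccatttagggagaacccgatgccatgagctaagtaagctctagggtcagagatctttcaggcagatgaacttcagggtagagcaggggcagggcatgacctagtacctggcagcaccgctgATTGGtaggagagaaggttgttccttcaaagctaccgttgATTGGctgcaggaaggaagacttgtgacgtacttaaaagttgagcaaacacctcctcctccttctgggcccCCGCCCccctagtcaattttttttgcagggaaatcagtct
Copz2 (chr11:96849626-96849925, plus strand), which encodes a coatomer subunit, had a peak in the dKO list and in no other list.
Copz2: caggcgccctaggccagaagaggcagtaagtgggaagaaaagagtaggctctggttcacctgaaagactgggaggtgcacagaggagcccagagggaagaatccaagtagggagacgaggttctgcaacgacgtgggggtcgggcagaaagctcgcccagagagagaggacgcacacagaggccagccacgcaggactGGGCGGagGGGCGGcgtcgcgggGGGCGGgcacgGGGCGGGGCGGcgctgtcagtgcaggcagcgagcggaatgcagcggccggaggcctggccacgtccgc
The Cbfb window held 4 SP matches and 2 overlapping NRF1 matches, and the Gm5165 window held 5 ETS matches, some of them on both strands of the same letters. Hjurp had 2 ETS matches, Aass 2 NFY matches and 1 SP match, and Copz2 5 SP matches with no ETS or NRF1 match. All 5 SP matches of Copz2 lay outside its dKO peak, which began at chr11:96849877, near the end of the window. The first SP match of the Cbfb window also lay outside its peak, which began at chr8:105170502. GC content was 67.3% in the Copz2 window, above the median of 54.0% of its class, and 51.7% in the Gm5165 window, below the 64.0% of its class. A match is a description of letters and not a bound site.

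The dKO library was the shallowest of the study. The background depth inferred from the peak values was 2.41 reads per kb in the dKO and 6.29 to 11.2 reads per kb in the other 8, and the weakest dKO peak stood on 4 reads at its summit, against 6 or 7 elsewhere. The other lists held 27536 to 44412 autosomal peaks. The names of the dKO peaks follow a different naming of the run than those of the other libraries, so that run, depth and genotype cannot be told apart. For these reasons a region without a dKO peak is given only as a region where no peak was called. Reads at a summit could be recovered as whole numbers for 99.9% of the dKO peaks, and the 11 exceptions were all in the class found in all 8 other lists.

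The class of a dKO peak followed its read number. Peaks with 4 reads at the summit were in all 8 other lists in 17.5% of cases (14.7 to 20.7, 618 peaks) and in none in 58.9% (55.0 to 62.7). With 7 reads, 76.4% were in all 8 and 3.52% in none (1251 peaks). With 20 reads or more, 99.3% of 731 peaks were in all 8 and 0 of 731 were in none, which allows a share of up to 0.410% (3 counts of the total). Of the 943 peaks in no other list, 75.9% had 4 or 5 reads, against 6.08% of the peaks in all 8, and 17 had 10 reads or more.

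**Figure D1:**
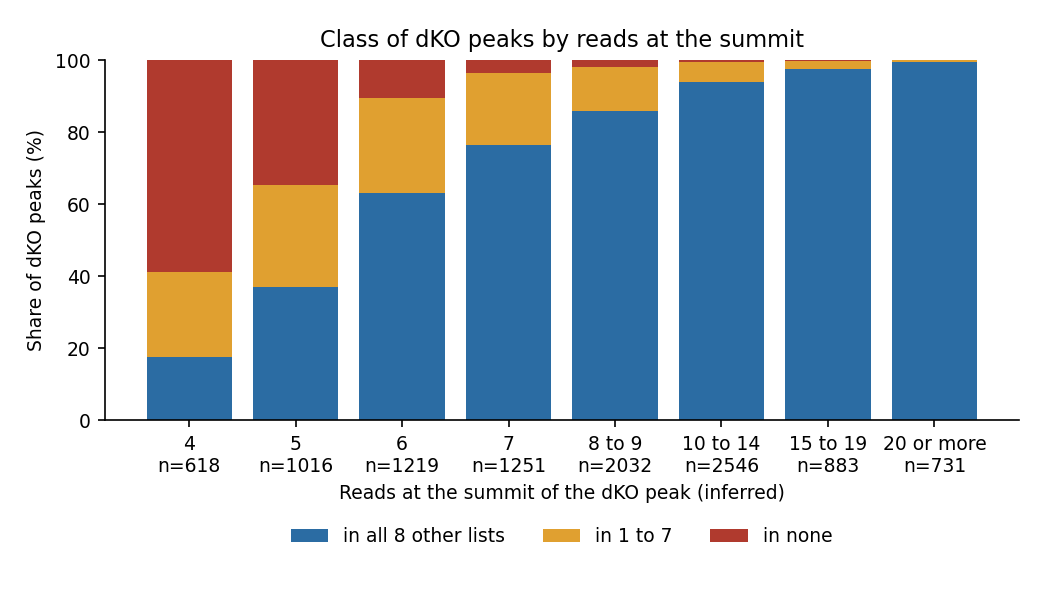
Share of dKO peaks (%) in each class against the reads inferred at the peak summit. Bars are stacked by class and n is the number of peaks. The share in no other list goes from 58.9% at 4 reads to 0% at 20 or more.

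Strength and width followed the same order. The authors' fold enrichment at the summit had a median of 5.90 in the class in all 8 (quartiles 4.81 and 7.45), 4.59 in the class in some (4.06 and 5.27) and 4.05 in the class in none (3.42 and 4.11). The highest fold was 48.9, 14.8 and 11.1 in the same order. Median widths were 416, 274 and 234 bp. The classes overlapped widely: the lowest fold among peaks in all 8 was 1.86, below every peak of the class in none.

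**Figure D2:**
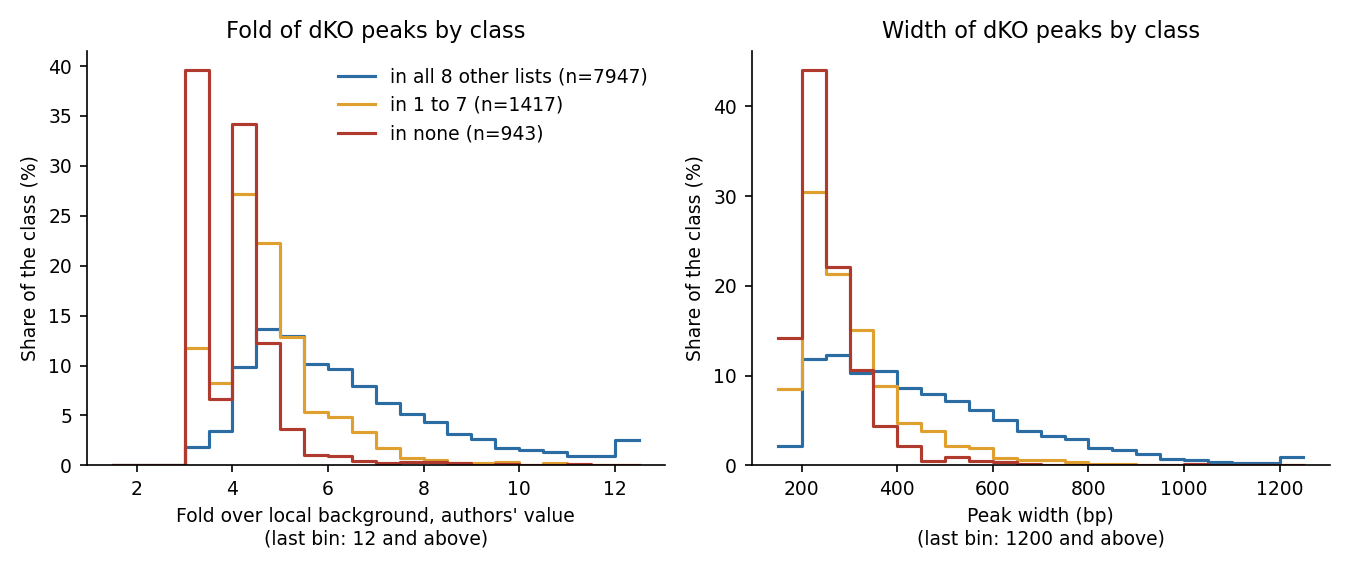
Distribution of the authors' fold over local background (left) and of peak width in bp (right) for dKO peaks of the 3 classes, as share of the class (%) per bin. The last bin holds all larger values. The class in none piles up at folds of 3 to 4.5 with a median width of 234 bp.

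Peaks shared with all other lists mostly lay at gene ends, and peaks in no other list mostly lay inside genes or between them. Of the class in all 8, 70.8% (69.8 to 71.8) lay within 1 kb of a gene end, meaning either end of any RefSeq gene. The share was 31.5% (29.1 to 33.9) in the class in some and 8.27% (6.68 to 10.2) in the class in none. Peaks in no other list lay inside gene bodies in 48.8% of cases and beyond 50 kb from any gene end in 16.4%, against 19.5% and 1.71% of the peaks in all 8. The median distance to a gene end was 1 bp, 6.31 kb and 16.7 kb in the 3 classes. The order held within broad bands of read number: with fewer than 7 reads, 62.5%, 28.4% and 7.46% were at gene ends, and with 7 to 9 reads 66.8%, 35.5% and 13.6%. With 10 reads or more the shares were 76.3%, 33.3% and 23.5%, the last over 17 peaks with an interval of 9.56 to 47.3. Read number was not equal within a band. With fewer than 7 reads, 716 of 845 peaks in none had 4 or 5 reads, against 483 of 1252 in all 8.

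Promoters under the 3 kinds of peak also differed in sequence. Of 31396 promoter windows on the autosomes, 5914 overlapped a dKO peak that was in all 8 other lists, 234 one in some and 22 one in none. Median GC content was 64.0%, 62.8% and 54.0% in that order, against 50.7% in the 25226 windows without a dKO peak. The ratio of observed to expected CpG, which is high in CpG islands, had medians of 0.832, 0.627, 0.317 and 0.293 over the same 4 sets. Windows of the class in all 8 held an ETS match in 32.4% of cases, against 11.5% in the class in some, 11.1% without a dKO peak and 15.1% of all windows. NRF1 letters were in 16.8% of the windows of the class in all 8 and 6.31% of all windows, and SP letters in 74.0% and 36.0%. NFY letters differed less, with 42.0% against 37.3% of all windows. The CTCF letters CNAGNGGGC stood in 12.7% of the windows of the class in all 8 and 7.12% of all windows. YY1 letters were in 3.26% and 1.39%. GATA letters went the other way, with 3.81% in the class in all 8 and 11.2% of all windows. TCF/LEF letters (CTTTGAT) were found in 1.93% and 3.76%, and HOX-PBX letters (TGATTTAT) in 0.118% and 0.978%. SP and NRF1 letters are GC-rich while GATA, TCF/LEF and HOX-PBX letters are AT-rich, and the part of base composition in these shares was not tested.

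The position of dKO peaks was then set beside that of the other libraries at equal list length, with each list shortened to its 10307 strongest autosomal peaks by −log10 p. The dKO had 59.7% of its peaks at gene ends. The others had 68.3% and 67.4% (WT), 63.2% and 62.0% (Bcat_KO), 65.5% and 63.8% (HOXA9_KO) and 62.8% and 61.4% (PRMT1_KO). The dKO was thus below all 8, whose mean was 64.3% ± 2.52 (SD, n = 8), with an exact permutation p of 0.222 for 1 library against 8 (two-sided). The smallest p this design can give is 0.111, so that no difference can pass 0.05. Peaks beyond 50 kb from a gene end made up 3.84% of the dKO list and 1.99% ± 0.162 (SD, n = 8) of the others, the median width was 365 bp against 619 to 809 bp, and 26.5% of dKO peaks had no partner in another shortened list against 2.62% ± 0.518 (SD, n = 8). For each of these 3 the dKO lay outside the range of the 8 others and the exact permutation p was 0.111. The dKO was also the shallowest library, and the part of depth in these values was not tested. Among the other 8, the WT pair had the least depth (7.38 and 6.29 reads per kb). It had the highest gene-end shares of the 8, and also the highest shares with no partner (3.11% and 3.54%). In full lists, the share of peaks with no partner was 9.15% in the dKO against 8 lists and 3.57% to 8.91% in the others, each against 7.

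**Figure D3:**
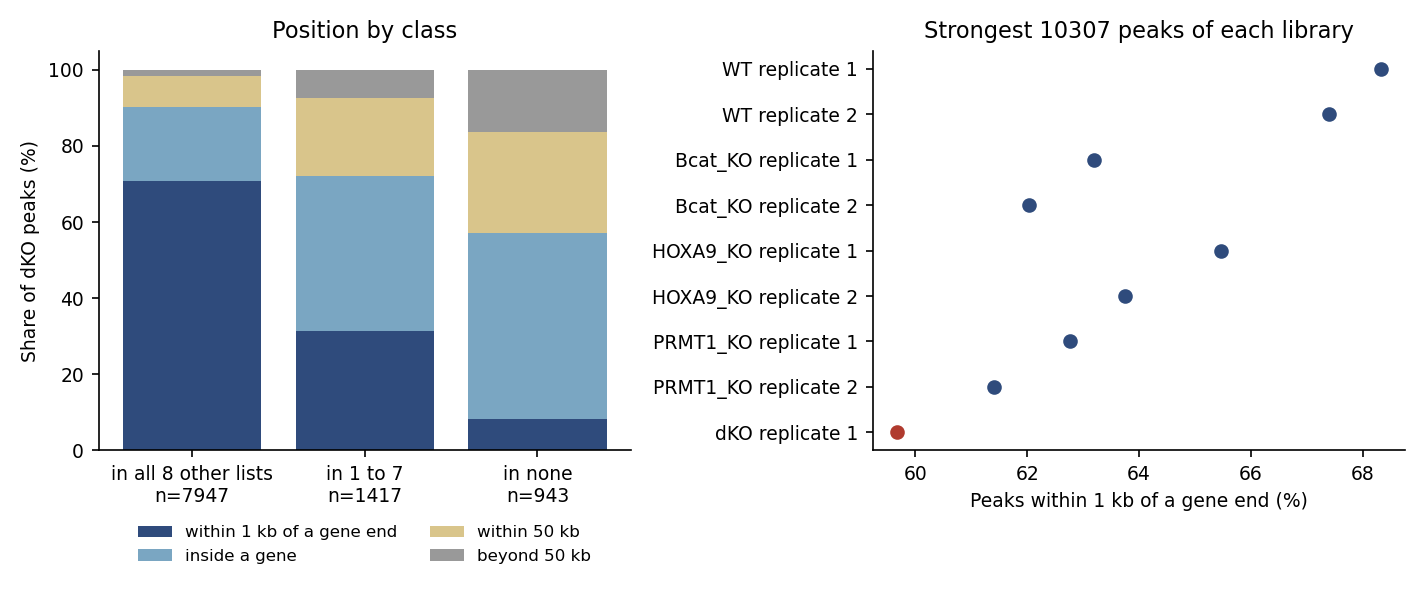
Left: share of dKO peaks (%) by position relative to RefSeq genes, per class. Right: share of peaks (%) within 1 kb of a gene end among the strongest 10307 of each library, 1 point per library, with the axis starting above 0. The dKO, in red, is at 59.7% and the others at 61.4% to 68.3%.

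The strongest dKO peaks with whole read numbers at protein-coding gene ends, a set chosen after the values were seen, were all of the class in all 8. Ptp4a1, a tyrosine phosphatase gene, had a fold of 16.7 in the dKO. Elsewhere WT had 15.4 and 17.2, Bcat_KO 16.4 and 17.2, HOXA9_KO 16.6 and 17.6, and PRMT1_KO 15.5 and 17.5, so that the dKO value lay within their range. Fold carries a pseudocount of 1 read in numerator and background, which lowers it in a shallow library, and it is used here only to describe. Hjurp had a fold of 12.4 with 74 reads in the dKO, below its 15.4 to 19.5 in the others. Gm5165 had 15.3 with 67 reads, below 17.3 to 23.7. Ascc3, a helicase gene of the activating signal cointegrator complex, had 16.1 against 15.9 to 18.4, within the range. A peak 0.497 kb from an end of Lars2, the mitochondrial leucyl-tRNA synthetase gene, had 18.5 against 37.5 to 48.5, less than in any other library. Khsrp (14), which encodes an RNA-binding protein, Tasp1 (16.6), the protease that cleaves MLL, Aasdhppt (14), Zfp654 (15), Dsel (15.1), Gm6712 (15.8) and Pja2 (13.9) completed the first 12.

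By −log10 p alone, the first 10 of the class in all 8 were of another kind: none was at a gene end, and 6 of the 10 lay on chromosome 9 or 12 within the first 4 Mb. A peak at chr2:98666253-98667321, 35.3 kb from the predicted gene Gm33780, had a fold of 23.0 in the dKO and 22.2 to 29.9 in the others. A peak inside Chl1, which encodes a neural adhesion molecule, had 47.8 in the dKO and 49.97 to 69.3 in the others. The peak at chr12:3109872-3110105, with no gene within 50 kb, had the highest fold of the list, 48.9, against 50.3 to 69.9. These regions had high folds in the other 8 lists too. Whether reads there map uniquely was not tested.

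Cbfb, the stem cell gene shown above, had a dKO fold of 5.02 on 7 reads, under its 7.66 to 13.6 in the others. It belongs to a list of 19 stem and progenitor factors, 10 of which had a dKO peak at a gene end, 8 of class all and 2 of class some. The other libraries had 10 to 12 at equal length. Over all 20665 autosomal protein-coding genes 31.3% had a dKO peak within 1 kb of an end, 29.3% with the strongest such peak in all 8 other lists, 1.78% in some and 0.252% in none. Etv6, an ETS family repressor needed by adult blood stem cells, led the list with 7.95, within its 7.50 to 10.95 elsewhere. Nfe2, a factor of platelet-forming cells, had 6.07. Ikzf1, an early lymphoid regulator, had 5.49 against 7.37 to 10.1. All 9 members without a dKO peak at an end but Ldb1 had such a peak in 5 or more of the other full lists. Within 50 kb of the 19 genes there were 36 dKO peaks, 29 in all 8 other lists and 7 in some, at 16 of the genes. At equal length the lowest counts of the other libraries, taken gene by gene, summed to 27 and the highest to 63. No such count over all genes is given here. Ikzf1 alone had 6 of these, at folds of 3.92 to 7.53, all in all 8 other lists. Peaks inside Hlf (4.82) and Prdm16 (4.53), both regulators of stem cell maintenance, were shared with only 2 and 1 of the other lists.

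Of the 7 heptad factors, which bind together at blood stem cell enhancers, Tal1 alone had a dKO peak at a gene end. Its fold was 7.88 in the dKO, while WT had 6.47 and 6.29, Bcat_KO 7.56 and 7.35, HOXA9_KO 7.42 and 8.75, and PRMT1_KO 9.96 and 7.44. The dKO value stood inside this range. At equal list length 1 or 2 of the 7 had a peak in each other library, and 4 to 6 in the full lists. Gata2 (4.29), Runx1 (5.49) and Fli1 (4.24) each had a dKO peak inside the gene away from its ends, shared with all 8. Of the 15 LSK markers, 5 had a dKO peak at an end (33.3%, near the 31.3% of all protein-coding genes), against 5 to 8 in the others at equal length: Tal1, Cd34 (7.53), the surface sialomucin, Flt3 (6.44), the cytokine receptor of multipotent progenitors, Meis1 (4.63) and Cebpa (4.47). Kit, the receptor that defines the gate, had no dKO peak at an end, although the longer full lists of all 8 others had one at 5.49 to 10.1. At equal length the others had 0 to 2 peaks within 50 kb of Kit. Ly6a, which encodes Sca-1, had a peak at an end in no library. None of the 12 markers of lineage-positive cells had a dKO peak at an end, nor did any other library at equal length. Of 9 non-blood markers Epcam had one (5.96), of class some and also present in 7 of the 8 full lists at 3.41 to 6.06. At equal length the other libraries had 0 of the 9.

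Lineage genes had few dKO peaks at their ends. In bulk libraries, fewer cells of a type and less accessible DNA per cell cannot be told apart. Among 16 myeloid genes 2 had one, against 3 to 5 in the other libraries at equal length: Csf2ra (8.13), the GM-CSF receptor subunit, and Cebpa (4.47), the factor of granulocyte commitment. Among 16 lymphoid genes the count was 0, against 1 to 2, and among 17 erythroid and megakaryocyte genes it was 1, Rab27b (4.11), against 2 to 4. All 3 counts lay below the 31.3% of all protein-coding genes. Within 50 kb, dKO peaks lay at 9 of the 16 myeloid, 10 of the 16 lymphoid and 11 of the 17 erythroid and megakaryocyte genes. Counted gene by gene these were 17, 15 and 17 peaks. At equal length the lowest counts of the other libraries, taken gene by gene, summed to 20, 15 and 17 and the highest to 37, 24 and 37. No such count over all genes is given here.

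In the Wnt list, 11 of 27 genes had a dKO peak at an end, against 11 to 15 in the others at equal length. Lgr4, a receptor for R-spondins that raises Wnt responses, had 14.3 in the dKO with 40 reads. For Lgr4 WT had 14.7 and 18.2, Bcat_KO 16.8 and 19.4, HOXA9_KO 17.8 and 17.7, and PRMT1_KO 16.2 and 18.4, all above the dKO. Gsk3b, the kinase that marks β-catenin for destruction, had 10.7 in the dKO, within the 10.6 to 13.9 of the others. Csnk1a1 (8.74), its priming kinase, and Pygo2 (8.14), a nuclear partner of β-catenin, followed. Lgr5 (4.74) was the only member whose dKO peak was of class some. The Wnt target Myc had no dKO peak at an end, and in the other full lists it had one at 7.04 to 9.05. Axin2, another Wnt target, had none in any library.

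The targeted genes could be followed only by whether a peak was called at an end, which does not check a deletion. Ctnnb1 had no dKO peak, and the longer full list of every other library had one. WT had it at 8.31 and 8.34, Bcat_KO at 9.19 and 8.77, HOXA9_KO at 9.43 and 9.70, and PRMT1_KO at 8.60 and 10.7. At equal length the others had 0 to 2 peaks within 50 kb of Ctnnb1. Hoxa9 had no dKO peak and no WT or Bcat_KO peak at an end. It had one in HOXA9_KO replicate 2 (5.09) and in both PRMT1_KO libraries (4.33 and 6.23). Prmt1 had a dKO peak of 6.99 with 15 reads, below the 11.8 to 17.6 of the others. Promoters of 8 of the 9 arginine methyltransferase genes had a dKO peak, against 7 to 8 at equal length, all of class all, led by Prmt6 (7.81), and Prmt8, a brain enzyme, had none.

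Of 18 Hoxa cluster and cofactor genes 5 had a dKO peak at an end, above the 3 to 4 of the others at equal length and below 31.3%. Hoxa5 and Hoxa6 share 1 peak, at chr6:52204395-52204634 with a fold of 5.27, which was in 3 other lists: both HOXA9_KO libraries (7.04 and 6.62) and PRMT1_KO replicate 1 (4.93). This peak counts for both genes, and counted once it would not leave the dKO above the others. Both lists from the Hoxa9 single mutant thus held it and neither WT nor Bcat_KO list did. Pbx4 (5.08) and Meis1 (4.63), which encode cofactors of Hox proteins, also had one.

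Housekeeping lists were covered in part. Of 40 DNA replication genes 27 had a dKO peak at an end, all of class all, against 29 to 35 in the others at equal length. Gins1, a subunit of the replicative helicase, had 11.8 in the dKO. WT had 11.7 in both libraries, Bcat_KO 12.2 and 11.2, HOXA9_KO 11.7 and 11.9, and PRMT1_KO 11.7 and 14.1, which enclose the dKO value. Rpa3 (10.6), of the single-strand binding complex, Dbf4 (10.5), the activator of the Cdc7 kinase, and Mcm4 (9.45), a helicase subunit, came next. Of 25 DNA damage genes 11 had a dKO peak, against 15 to 22, led by Xrcc4 (13.6 in the dKO, 16.1 to 23.5 in the others), the end-joining factor. Cytosolic ribosomal protein genes had one in 32 of 77 cases, against 46 to 56, and mitochondrial ones in 33 of 78, against 41 to 52. Rps29 had 11.1, Mrpl50 11.8 and Mrps28 10.3. Interferon response genes had one in 6 of 15 cases, against 7 to 8, led by Ifih1 (9.63), a sensor of viral RNA. The dKO was below all 8 other libraries in 8 of the 16 lists and above them in 2 (Hoxa genes with cofactors, and non-blood markers). In the Hoxa list this rests on the peak that Hoxa5 and Hoxa6 share. Over all protein-coding genes the 31.3% of the dKO was also below the 33.0% to 36.9% of the others.

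**Figure D4:**
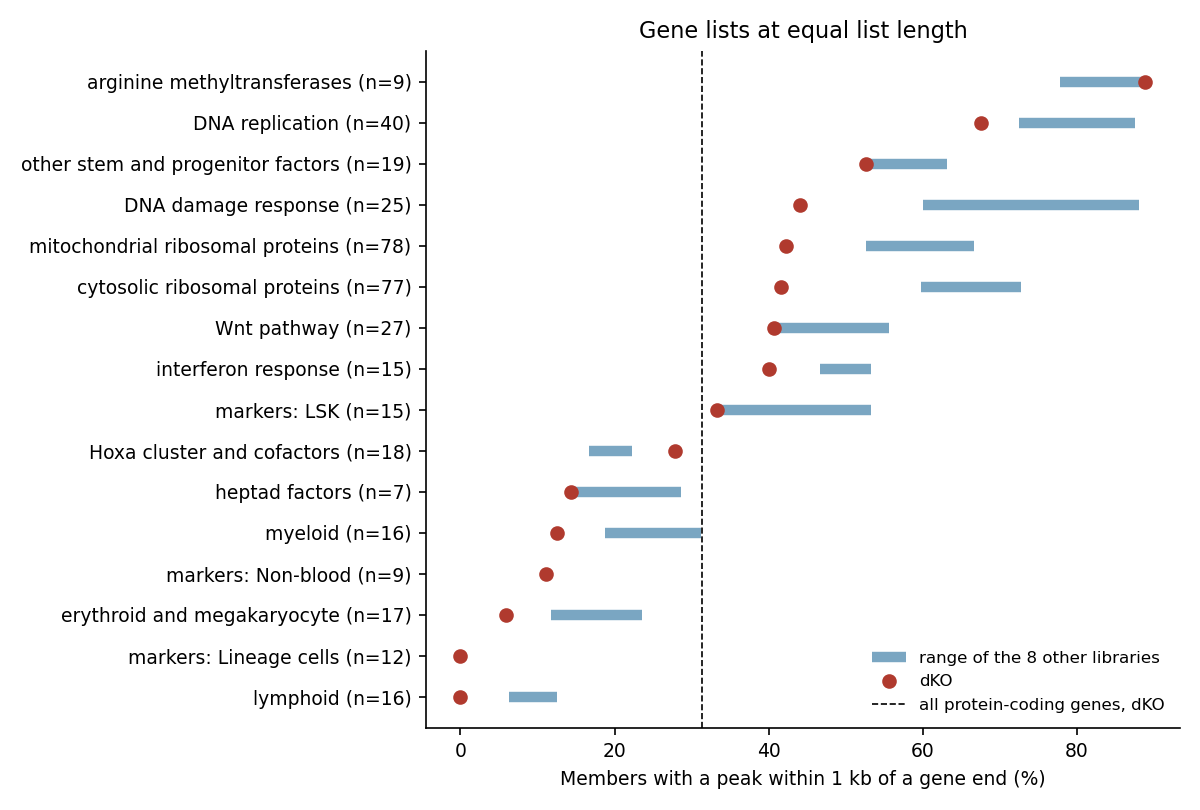
Share of list members (%) with a peak within 1 kb of a gene end, in the dKO (red points) and as the range of the 8 other libraries (bars) at equal list length. The dashed line is the 31.3% of all protein-coding genes in the dKO. Ribosomal protein, replication and DNA damage genes lie left of the bars.

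How far the dKO list reaches was measured on the 18667 merged regions present in all 8 other lists. 42.9% of them (42.2 to 43.6) had a dKO peak. The share was 12.6% in the weakest decile by mean rank in the 8 lists and 97.6% in the strongest. In decile 5, regions within 1 kb of a gene end had a dKO peak in 39.6% of cases (36.3 to 42.9) and other regions in 20.4% (18.03 to 23.0). Averaged over deciles 5 to 8, the excess at gene ends was 17.6 percentage points in the dKO. With each other library held out in the same way at the dKO list length, WT gave 17.2 in both, Bcat_KO −5.72 and −9.18, HOXA9_KO 9.05 and 0.920, and PRMT1_KO −5.77 and −10.2. The dKO was the highest of the 9, next to WT, with an exact permutation p of 0.111.

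Likeness to each library was taken at equal list length as the Jaccard index, shared regions over all regions. The dKO gave 0.457 and 0.445 with WT, 0.450 and 0.441 with HOXA9_KO, 0.427 and 0.422 with Bcat_KO and 0.423 and 0.418 with PRMT1_KO. The WT and HOXA9_KO values overlapped each other and lay above all 4 Bcat_KO and PRMT1_KO values. Pairs among the other 8 libraries ranged from 0.659 to 0.762. An exact permutation test over the 105 ways to divide the 8 libraries into 4 pairs, added after the values were seen, gave p = 0.0476 for genotype and 0.0667 after Benjamini-Hochberg adjustment over 3 such measures. Over the 7947 dKO peaks with a partner in all lists, strength ranks had Spearman coefficients of 0.584 to 0.617 with each other library, against 0.856 to 0.936 among those 8. All of these share the same regions, and depth differs between the dKO and the rest.

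In full lists, HOXA9_KO held the most dKO peaks, 87.0% and 86.8%. Bcat_KO held 85.8% and 86.3% from longer lists, PRMT1_KO 85.5% and 84.3%, and WT 84.6% and 81.5%. Within the class in some, HOXA9_KO libraries held 71.9% and 70.3% of the 1417 peaks, Bcat_KO 63.4% and 66.6%, PRMT1_KO 60.8% and 52.1% and WT 54.8% and 31.8%. Of that class, 185 peaks were in every list but WT replicate 2, the shortest of the 8. The values of the HOXA9_KO pair lay above those of the other 6 libraries. Both sets of shares give the same order, since every list holds the peaks of the class in all 8. The same exact permutation test on the first set gave p = 0.0667, and 0.0667 after adjustment, over the same overlaps that define the classes.

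Regions found in 1 genotype alone were counted from the same overlaps, and give no separate support for the order above. Of 821 regions in both HOXA9_KO lists and no other of the 8, 30 had a dKO peak (3.65%, 2.57 to 5.17). The share was 1.61% of 559 Bcat_KO regions (0.849 to 3.03), 0.922% of 759 PRMT1_KO regions (0.447 to 1.89) and 0.671% of 149 WT regions (0.119 to 3.70). With the other lists shortened to the 27536 peaks of the shortest, a choice made after the values were seen, HOXA9_KO had 8.14%, WT 4.04%, Bcat_KO 2.70% and PRMT1_KO 0.815%. The regions of HOXA9_KO also had the highest median fold in both settings. In full lists it was 4.72, against 4.21 (WT), 4.46 (Bcat_KO) and 4.52 (PRMT1_KO). In shortened lists it was 6.26, against 4.73 (WT), 6.135 (Bcat_KO) and 6.10 (PRMT1_KO). The part of region strength in these shares was not tested. The intervals count regions from 2 libraries per genotype and 1 dKO library. Whether they overlap does not measure spread between libraries, and no difference between genotypes is read from it. Among regions found in 1 library alone, 0.775% and 1.15% had a dKO peak for HOXA9_KO, 0.541% and 0.509% for WT, 0.398% and 0.332% for Bcat_KO and 0.341% and 0.466% for PRMT1_KO. The exact permutation p over the 105 divisions was 0.0286, and 0.0667 after adjustment over the 3 measures, so the difference between genotypes did not pass 0.05 after adjustment. This count draws on the same overlaps that define the classes. It is not independent of the share of dKO peaks held by each list.

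**Figure D5:**
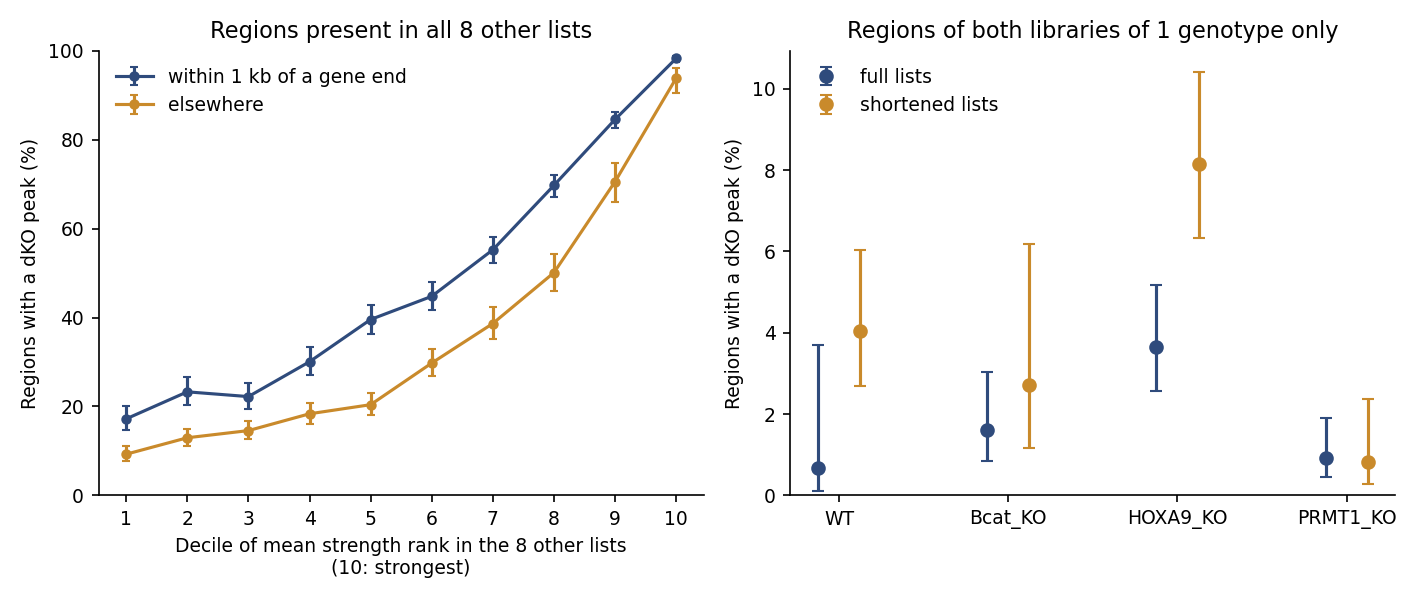
Left: share of regions of all 8 other lists with a dKO peak (%), by decile of mean strength rank, for regions within 1 kb of a gene end and elsewhere. Right: share of regions found in both libraries of 1 genotype only that have a dKO peak (%), in full and shortened lists. Bars are 95% Wilson intervals for counting error. The HOXA9_KO points are the highest, at 3.65% and 8.14%.

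Peaks at sites of the single mutants were named by a fixed order of −log10 p. 112 dKO peaks were in both Bcat_KO and both HOXA9_KO lists and in neither WT list, 16 of them at a gene end, and they marked 4.79% of 2256 such regions (3.98 to 5.75). The reverse pattern, both WT lists and no Bcat_KO or HOXA9_KO list, held 4 dKO peaks at 1.02% of 295 regions (0.346 to 2.95). With the 8 other lists shortened to the 27536 peaks of the shortest, the counts were 60 and 42, and the reverse count was 17 where the dKO summit had to lie in the other peak. Leaving out 1 library at a time gave 112 to 355 and 4 to 30. WT had the least depth of the 8 other libraries. Chromosome Y below 90 Mb held 0 peaks in both WT lists, 12 to 16 in the single mutants and 6 in the dKO. Depth, sex and genotype thus cannot be told apart in either pattern. Aass had a dKO fold of 7.97 at its promoter. Bcat_KO had 7.28 and 7.87, HOXA9_KO 9.11 and 10.9, PRMT1_KO 4.22 and 4.12, and WT no peak. The dKO value stood between the Bcat_KO and HOXA9_KO values and above both PRMT1_KO values. A peak 17.9 kb from the odorant receptor gene Olfr547 had 8.30, one inside the autophagy gene Atg10 8.49, and one inside Pmepa1, an inhibitor of TGF-β signalling, 6.57. Peaks near Gm31596 (7.72) and inside Gm7854 (7.45) were the other 2 of the first 6. The 4 peaks of the reverse pattern were inside Gm2977 (10.9), Enah (4.77), an actin regulator, and Eva1c (3.44), and at an end of Gm2974 (4.74).

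Counted against WT one mutant at a time, 224 dKO peaks were in both HOXA9_KO lists and no WT list (4.32% of 4888 regions, 3.78 to 4.92), 167 for Bcat_KO (2.95% of 5362, 2.53 to 3.43) and 106 for PRMT1_KO (1.95% of 4974, 1.60 to 2.37). The reverse counts were 21 (1.26% of 1031), 23 (2.96% of 609) and 43 (6.67% of 615, 4.95 to 8.92). At 27536 peaks per list the counts were 179 against 86 for HOXA9_KO, 82 against 114 for Bcat_KO and 47 against 152 for PRMT1_KO, so that the direction of the last 2 turned. In full lists, for HOXA9_KO the dKO share was higher at regions present in the mutant, for Bcat_KO the shares were 2.95% and 2.96%, and for PRMT1_KO it was higher at the WT regions. These contrasts share the WT lists. Between both single mutants, 71 dKO peaks were in HOXA9_KO and not in Bcat_KO (3.77% of 1644, 2.95 to 4.81) and 43 in the reverse (1.29% of 2719, 0.927 to 1.79).

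Some named peaks of the class in some had their highest folds in HOXA9_KO. The promoter peak of Armh4 had 7.89 in the dKO, 8.76 and 10.5 in HOXA9_KO and 3.01 to 6.26 in the 4 others that held it. Lsamp, a neural adhesion gene, had 7.70 in the dKO, 9.37 and 9.003 in HOXA9_KO and 3.58 to 5.61 in 3 others. The reverse was seen inside Tiam1, a Rac exchange factor gene, with 9.14 in the dKO, 7.44 and 8.40 in WT, 8.87 and 6.88 in PRMT1_KO, 5.70 and 5.47 in Bcat_KO and 4.21 in 1 HOXA9_KO library. With Tiam1, the first 10 of the class by −log10 p held peaks inside Tm4sf1 (9.96), Pde1c (9.74), a phosphodiesterase gene, and Mcph1 (9.59). Mcph1 is the microcephaly gene of the damage checkpoint. Armh4 and Lsamp were not among these 10. Of the 33 dKO peaks at regions of HOXA9_KO alone, the strongest were at ends of Gm32587 (8.26) and 9330188P03Rik (8.16), near Trhr (7.85), a hormone receptor gene, and inside Prkd1 (6.83), a kinase gene. Of the 9 at regions of Bcat_KO alone, those at Mir6387 (6.24) and near Gm10354 (5.64) were the strongest. The last 2 sets, and the set at protein-coding gene ends from which Armh4 and Lsamp were taken, were added after the values were seen.

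The 943 peaks in no other list were spread over 728 bins of 1 Mb, with an exception on chromosome 14. There, 87 of 459 dKO peaks (18.9%, 15.6 to 22.8) were in none, against 8.69% (8.15 to 9.27) on the other autosomes together. Between 3 and 8 Mb the dKO had 73 peaks, 48 of them in none, 16 in some and 9 in all 8. These made up 0.708% of its list, and 0.0898% to 0.136% of the others (31 to 50 peaks). In the shortened lists of equal length the others had 9 to 14 peaks there. The window holds 115 RefSeq genes, 102 of them with the provisional Gm symbols of predicted genes. The strongest peak of the whole class, inside 2610042L04Rik at chr14:4335083-4335675, had a fold of 11.1 with 18 reads. Gm2974 (9.58, 13 reads), Gm8108 (7.66, 15 reads) and Gm3173 (8.17, 11 reads) lay in the same window. Of the 17 class members with 10 reads or more, 6 were in this window, and the median fold of its 48 was 4.79. Whether copy number, mapping of repeated sequence or the separate run name moves with this window was not tested.

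Outside that window, Gm36907 on chromosome 17 (8.88, 15 reads), a peak 23.0 kb from Bard1 (8.69, 13 reads), the partner of Brca1, one inside Gm12610 (8.49, 13 reads) and one inside Eml6 (8.21, 11 reads) were the strongest of the class in none, and Gm41101 (7.53, 10 reads) followed. At gene ends the class held 78 peaks, among them Bche (6.01, 8 reads), which encodes butyrylcholinesterase, Bmp3 (5.48, 7 reads), a bone morphogenetic protein, and Sin3b (4.78, 12 reads), a corepressor scaffold. One bin on chromosome 11, from 96 to 97 Mb, held 5 peaks of the class: Hoxb5 (3.60, 5 reads), Hoxb2 (3.36, 4 reads), Skap1 (4.79, 6 reads), Copz2 (5.15, 7 reads) and D030028A08Rik (3.81, 5 reads). All 5 stood on 4 to 7 reads, where 58.9% (4 reads) to 3.52% (7 reads) of dKO peaks had no partner.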

How the data were processed

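ATAC-seq peaks were taken from the 9 lists the authors deposited, 1 per library, and were grouped by the sample titles. The members, gene lists and motifs were chosen with earlier results of these data known. Per the submitters' processing notes, reads were aligned with Bowtie2 2.4.2 to GRCm38/mm10 and handled with SAMtools 1.14 and Picard 2.27.4, and peaks were called with MACS2. The deposited lists hold a score (the whole part of 10 times −log10 q for nearly all peaks), the fold enrichment at the summit (a ratio to local background), −log10 p and −log10 q, and the summit offset, with no scaling between libraries.

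Here, overlap was at least 1 bp, and no list held peaks overlapping each other. Genes and promoter windows came from RefSeq GRCm38.p6 (34209 autosomal genes, 25748 with a window). The window table is not complete, and no genome was used, so motifs were searched in promoter windows only. Reads at a summit were recovered from fold and −log10 p under the Poisson model with a pseudocount of 1, within 0.01. On data simulated under the same model, 100% of 10000 peaks were recovered. This checks the calculation only, and not whether the deposited values follow the model. Background depth is the background at the floor of a list divided by its shortest peak, and is inferred. Lists of equal length took the strongest peaks by −log10 p. Named were the 10 strongest peaks by −log10 p per class, the 6 strongest per pattern of single mutants against WT, up to 4 members per gene list, and the targeted genes. Peaks at protein-coding ends, peaks in none at gene ends and peaks at regions of 1 genotype were added after their values were seen. Single values were compared by exact permutation over libraries. p-values measure only the spread between these libraries. Other overlaps, thresholds, list lengths, distances and left-out libraries were tried. A few genes are not reported here. Python 3.11.15, numpy 2.4.6, pandas 2.3.3, SciPy 1.17.1 and matplotlib 3.10.9 were used.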

Additional observations from a re-analysis of the deposited data

How the results depend on the processing

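No paired analysis was possible because the dKO has 1 library, so that it shares fewer than 2 replicate numbers with any group. The shares of dKO peaks in all, some and none of the other lists were 71, 18.6 and 10.4% when 50% of the dKO peak had to be covered, 71.6, 18 and 10.3% when its summit had to lie in the other peak, and 72.1, 16.5 and 11.4% with the other lists held to a −log10 q of at least 5. They were 95.1, 4.32 and 0.59% for dKO peaks with a −log10 q of at least 5, and 48.8, 24.8 and 26.5% against lists shortened to 10307 peaks. Leaving out 1 of the 8 libraries gave 77.2 to 78.9% in all, 11.9 to 13.5% in some and 9.22 to 9.54% in none, and the dKO differences at equal length were −5.04 to −4.05 percentage points for gene ends and 23.5 to 24.7 for peaks with no partner. Adding X and Y, or leaving out chromosome 14 from 3 to 8 Mb (chosen after seeing the data), moved these shares by less than their counting error. Gene-end shares were 66.5% (all), 25.6% (some), 4.77% (none) within 500 bp and 76.3% (all), 41% (some), 15.7% (none) within 2.5 kb, 69.3% (all) by summit, and 75.6% (all), 16% (none) for the strict dKO peaks, with the order of the classes kept. The share of protein-coding genes with a dKO peak at an end was 29.3% within 500 bp and 34.7% within 2.5 kb. Jaccard indices with lists ranked by fold were 0.426 (WT), 0.415 (HOXA9_KO), 0.394 (Bcat_KO), 0.391 (PRMT1_KO). Jaccard indices with lists of 5000 peaks were 0.488 (WT), 0.482 (HOXA9_KO), 0.459 (Bcat_KO), 0.462 (PRMT1_KO). WT and HOXA9_KO stayed above Bcat_KO and PRMT1_KO in both. Leaving out 1 library of a pair only returns the index of the other library and adds no check. It gave 0.445 to 0.457 (WT), 0.441 to 0.45 (HOXA9_KO), 0.422 to 0.427 (Bcat_KO), 0.418 to 0.423 (PRMT1_KO). Counts of dKO peaks per pattern changed with list length, which differs between WT and the mutants. With lists shortened to 27536 peaks they were 60 (Bcat_KO and HOXA9_KO and not WT), 82 (Bcat_KO and not WT), 24 (Bcat_KO, HOXA9_KO and PRMT1_KO and not WT), 145 (HOXA9_KO and not Bcat_KO), 47 (PRMT1_KO and not WT), 114 (WT and not Bcat_KO), 42 (WT and not Bcat_KO or HOXA9_KO), 86 (WT and not HOXA9_KO), 152 (WT and not PRMT1_KO), 5 (only both Bcat_KO), 56 (only both HOXA9_KO), 3 (only both PRMT1_KO), 26 (only both WT). With the summit inside the other peak they were 113 (HOXA9_KO and not Bcat_KO), 70 (WT and not Bcat_KO), 17 (WT and not Bcat_KO or HOXA9_KO), 42 (WT and not HOXA9_KO), 5 (only both WT). Leaving out a library loosens the patterns by construction and gave 112 to 355 (Bcat_KO and HOXA9_KO and not WT), 43 to 124 (Bcat_KO and not HOXA9_KO), 167 to 456 (Bcat_KO and not WT), 60 to 242 (Bcat_KO, HOXA9_KO and PRMT1_KO and not WT), 71 to 204 (HOXA9_KO and not Bcat_KO), 224 to 540 (HOXA9_KO and not WT), 106 to 374 (PRMT1_KO and not WT), 23 to 93 (WT and not Bcat_KO), 4 to 30 (WT and not Bcat_KO or HOXA9_KO), 21 to 80 (WT and not HOXA9_KO), 43 to 133 (WT and not PRMT1_KO), 10 to 24 (only both Bcat_KO), 34 to 73 (only both HOXA9_KO), 7 to 19 (only both PRMT1_KO), 1 to 18 (only both WT). In the shortened lists the share of single-genotype regions with a dKO peak was 8.14% for HOXA9_KO and 4.04% for WT. Regions weak in the other lists mostly had no dKO peak, and run, depth and genotype cannot be told apart there. The cause of the differences between settings was not tested.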

Other observations

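Sex chromosomes were not part of the 10307 peaks. The dKO list held 319 peaks on X, against 776 to 1020 in the other libraries, and 6 on Y below 90 Mb. These values entered no comparison of the classes.

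In the promoter windows, the 22 that met a dKO peak found in no other list had an NFY match in 11 cases and an ETS match in 1. Of the 234 windows of the class in some, 64.1% held SP letters and 13.2% the CTCF letters. The PU.1 letters GAGGAAGT were in 3.13% of the windows of the class in all 8 and in 3.25% of all windows, RUNX letters in 3.20% and 5.32%, AP-1 letters (TGANTCA) in 3.89% and 7.85%, and E-box letters (CAGCTG) in 13.3% and 16.3%.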
